A study of Mus musculus with 8 samples.

Results

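Genes that control the step from G1 into S phase were followed in LLC, a mouse Lewis lung carcinoma cell line. The cells were studied with and without factor inhibiting HIF (FIH, gene Hif1an). The 10 genes were the D cyclins Ccnd1, Ccnd2 and Ccnd3, the E cyclins Ccne1 and Ccne2, the cyclin-dependent kinases Cdk4, Cdk6 and Cdk2, the phosphatase Cdc25a and the retinoblastoma gene Rb1. They were chosen by name, 10 of the 53700 genes of the count table, and each matched 1 row. Poly(A) RNA-Seq libraries came from wild-type (WT) and FIH-deficient (FIH-KO) LLC cells kept for 16 h at 21% O2 (normoxia) or 1% O2 (hypoxia), which made 4 groups of 2 libraries and 8 libraries in all. No drug was given, and all groups grew in serum-containing DMEM. FIH-KO cells were made with a Cas9 ribonucleoprotein aimed at exon 2 of Hif1an followed by dilution to single-cell clones. Whether the FIH-KO libraries came from 1 clone, and whether the WT cells had received a control guide, is not given in the sources used here, so loss of FIH and differences between clones cannot be told apart. Nothing says that the replicates were separate cultures, so the p-values measure only the spread between these libraries.

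In G1, mitogen signals raise the D cyclins, which bind Cdk4 or Cdk6 and start the phosphorylation of the retinoblastoma protein. Phosphorylated Rb1 releases E2F factors, which switch on the E cyclins, Cdc25a and the genes of DNA replication. Cyclin E with Cdk2 completes the phosphorylation of Rb1, and Cdc25a removes the inhibitory phosphates from Cdk2. FIH is an asparaginyl hydroxylase that uses oxygen to block the C-terminal transactivation domain of HIF-α, and cells slow or hold in G1 under low oxygen in many settings.

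Library totals ran from 14519731 to 18177016 counts, and 13933 genes passed a filter on low counts and were tested. All 10 genes passed it, with 232 counts or more in every library. Levels are CPM, counts relative to the library total, scaled with TMM factors of 0.983 to 1.02. Hif1an, the target of the knockout, lay between 82.3 and 90.2 CPM in the WT libraries and between 34.8 and 51.0 CPM in the FIH-KO libraries, so its RNA was lower but not absent. The line carried RNA of the epithelial keratins Krt8 and Krt18 and of the mesenchymal genes Vim and Fn1, whereas the epithelial and lung markers Epcam, Nkx2-1 and Sftpc were at 0 in every library and Cdh1 was below 0.07 CPM. Of the markers of other cells reported here, Cd3e, Hba-a1 and Hbb-bs were at 0, Ptprc and Pecam1 stayed below 0.6 CPM, and Cdh5 reached 1.96 CPM in a WT hypoxia library. The macrophage marker Cd68 lay between 2.63 and 7.18 CPM. The 2 libraries of each group differed by more than counting noise, least in WT normoxia (chi-square per degree of freedom of 5.79) and most in FIH-KO hypoxia (24.1).

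Promoter sequence is shown for 4 genes that differ in their response. Cdc25a had the largest difference between genotypes, Ccnd2 the largest difference between oxygen levels, Rb1 was, with Ccnd3, higher in FIH-KO than in WT in normoxia, and Cdk4, like Cdk2, passed the test in none of the 4 comparisons. Each line holds the 250 bases before the start of the canonical GENCODE vM39 transcript, on the strand of the gene, from GRCm39. Capitals mark the letters searched on both strands, namely the hypoxia response element core (ACGTG or GCGTG), the E-box CACGTG, which contains the core on each strand, and the E2F letters TTTCCCGC, TTTCGCGC, TTTGCCGC and TTTGGCGC.
Cdc25a, chr9:109704333-109704582, plus strand: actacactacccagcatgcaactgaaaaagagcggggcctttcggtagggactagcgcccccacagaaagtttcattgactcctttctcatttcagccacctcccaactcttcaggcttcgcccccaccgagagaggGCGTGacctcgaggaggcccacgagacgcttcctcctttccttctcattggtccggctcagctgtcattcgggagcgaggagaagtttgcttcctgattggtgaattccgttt
Ccnd2, chr6:127128024-127128273, minus strand: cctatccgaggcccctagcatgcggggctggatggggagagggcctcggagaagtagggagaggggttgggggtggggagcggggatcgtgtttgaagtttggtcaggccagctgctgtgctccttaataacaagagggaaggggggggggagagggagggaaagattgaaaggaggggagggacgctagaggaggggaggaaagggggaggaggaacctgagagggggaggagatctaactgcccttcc
Rb1, chr14:73563508-73563757, minus strand: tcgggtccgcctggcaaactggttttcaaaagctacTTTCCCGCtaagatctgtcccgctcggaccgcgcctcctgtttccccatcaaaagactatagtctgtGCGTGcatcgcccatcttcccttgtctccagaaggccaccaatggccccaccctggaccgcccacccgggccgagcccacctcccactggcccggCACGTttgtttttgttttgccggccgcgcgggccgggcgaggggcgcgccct
Cdk4, chr10:126899125-126899374, plus strand: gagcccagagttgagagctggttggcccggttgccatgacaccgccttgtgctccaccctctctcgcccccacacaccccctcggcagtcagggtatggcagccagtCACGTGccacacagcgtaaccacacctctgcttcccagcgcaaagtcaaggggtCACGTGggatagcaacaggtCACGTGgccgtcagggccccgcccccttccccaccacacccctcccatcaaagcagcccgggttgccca

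The Cdc25a window held 1 hypoxia core, GCGTG, 113 to 109 bases before the start, and neither E2F letters nor an E-box. The Ccnd2 window, like that of Ccnd1, held none of the searched letters. The Rb1 window held E2F letters 214 to 207 bases before the start and 2 hypoxia cores. The Cdk4 window held 3 E-boxes, and 11 of 21770 protein-coding promoters (0.0505%) held 3 or more. Over the 10 genes, the hypoxia core was present in 8 windows, all but those of Ccnd1 and Ccnd2, against 41.3% of all promoters. E2F letters were present in the windows of Ccnd3, Cdk2 and Rb1, against 2.28% of all promoters, and the E-box in those of Cdk4 and Cdk6, against 6.26%. The matches describe letters only, and binding was not measured. In Ccnd3, Ccne1, Ccne2, Cdk6 and Cdk2 the window overlaps exons of other annotated transcripts and is not shown.

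Per kilobase of annotated exon, Cdk4 was the most abundant of the 10 transcripts in every group. In WT normoxia its level was 144 ± 2.53 CPM per kb (mean ± SD, n = 2), followed by Ccnd1 at 111 ± 5.36 and Ccnd2 at 32.0 ± 1.71. Ccne1 followed at 13.5 ± 0.318, and Cdk2, Ccnd3, Cdk6, Ccne2 and Cdc25a lay between 9.54 and 7.0. In this group the neighbours Ccnd3 and Cdk6, Cdk6 and Ccne2, and Ccne2 and Cdc25a overlapped between libraries and were not ordered. Rb1 was lowest, at 1.33 ± 0.137 CPM per kb, and was lowest in every group. In FIH-KO normoxia the ranges of Cdk4 and Ccnd1 overlapped, at 135 to 136 and 123 to 140 CPM per kb. In WT hypoxia Cdk6 stood next after Ccnd2 at 11.3 ± 1.46 CPM per kb but overlapped Ccnd3, which overlapped Ccne1. In FIH-KO hypoxia Cdk6 stood after Cdk2 at 6.05 ± 0.386 CPM per kb and overlapped Ccne2. This order depends on the length used. In CPM with no length correction Cdk4 was not the highest in any group. Ccnd1 stood above it in WT normoxia (means of 532 and 496), and Ccnd2 in WT hypoxia (649 and 435).

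**Figure D1:**
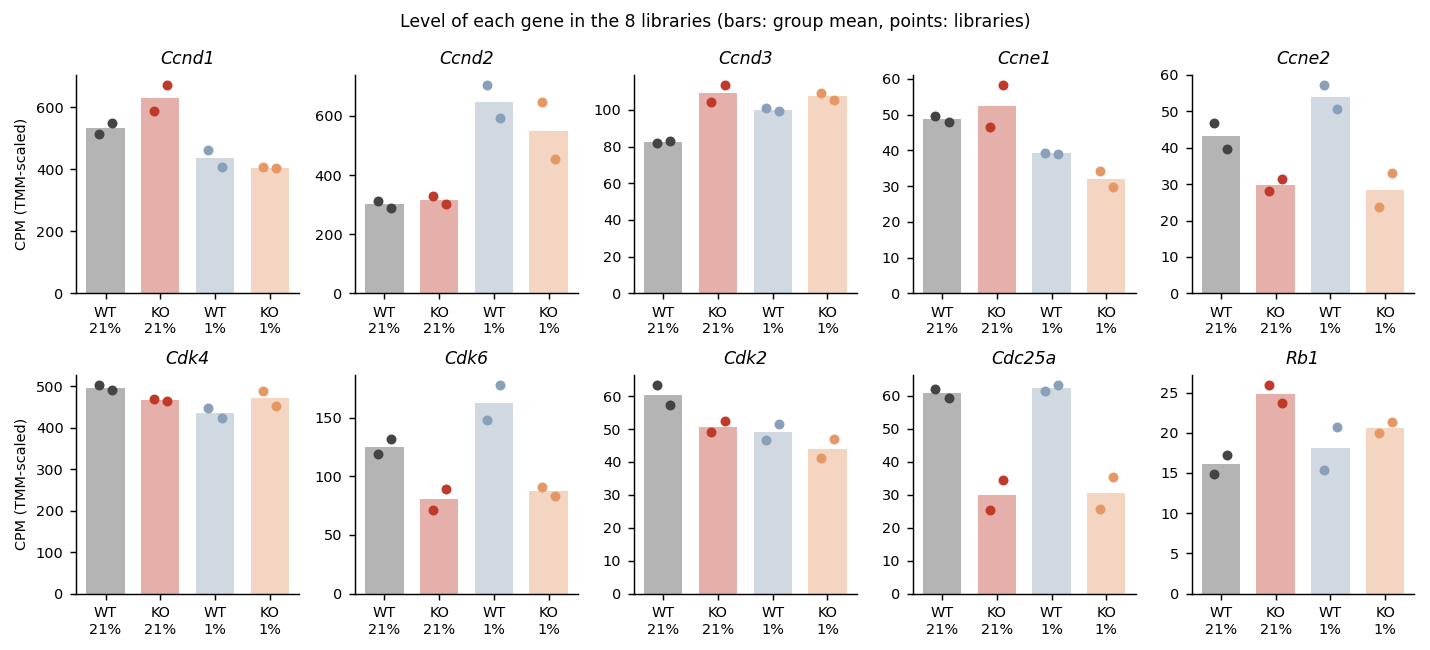
Level of each of the 10 genes in CPM scaled with TMM factors (linear axis from 0) in WT and FIH-KO (KO) cells at 21% and 1% O2; bars are group means and points the 2 libraries. Cdc25a and Cdk6 were lower in FIH-KO than in WT at each oxygen level, and Ccnd2 was higher at 1% O2 in each genotype.

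The first question was how loss of FIH changed these genes. In normoxia, Cdc25a, Cdk6 and Ccne2 were lower in FIH-KO than in WT cells and Rb1 and Ccnd3 were higher. In hypoxia, the same 3 genes, Cdc25a, Ccne2 and Cdk6, were lower again, and none of the 10 passed the test as higher. The calls were edgeR quasi-likelihood tests at an adjusted p below 0.05 over all tested genes. In normoxia 2 of the 10 were called higher against a background of 15.2% of all tested genes, and 3 lower against 13.0%. In hypoxia 3 were called lower against 13.9%, and 0 higher against 14.1%. No gene of the 10 was higher at an unadjusted p below 0.05 in hypoxia, and DESeq2 called the same 5 and 3 genes. The libraries of the 2 genotypes did not overlap for 8 of the 10 genes in normoxia, against 69.4% of all tested genes, and for 7 in hypoxia, against 61.7%, so a lack of overlap is common here. The comparisons between genotypes and those between oxygen levels share libraries and are not independent.

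The second question was how hypoxia changed them. In WT cells Ccnd2 was higher in hypoxia, and Cdk6 passed the threshold narrowly. In FIH-KO cells Ccnd2 was again higher, and Ccnd1 and Ccne1 were lower. In WT 2 of the 10 were called higher against a background of 16.9%, and 0 lower against 15.5%. In WT 6 of the 10 had an unadjusted p below 0.05, against 42.8% of all tested genes, among them Ccnd1, Ccne1 and Cdk2 on the lower side, and DESeq2 called Ccnd1 as lower. In FIH-KO 1 was called higher against 8.84%, and 2 lower against 8.0%. The libraries of the 2 oxygen levels did not overlap for 8 genes in WT (70.8% of all tested genes) and for 5 in FIH-KO (55.2%).

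**Figure D2:**
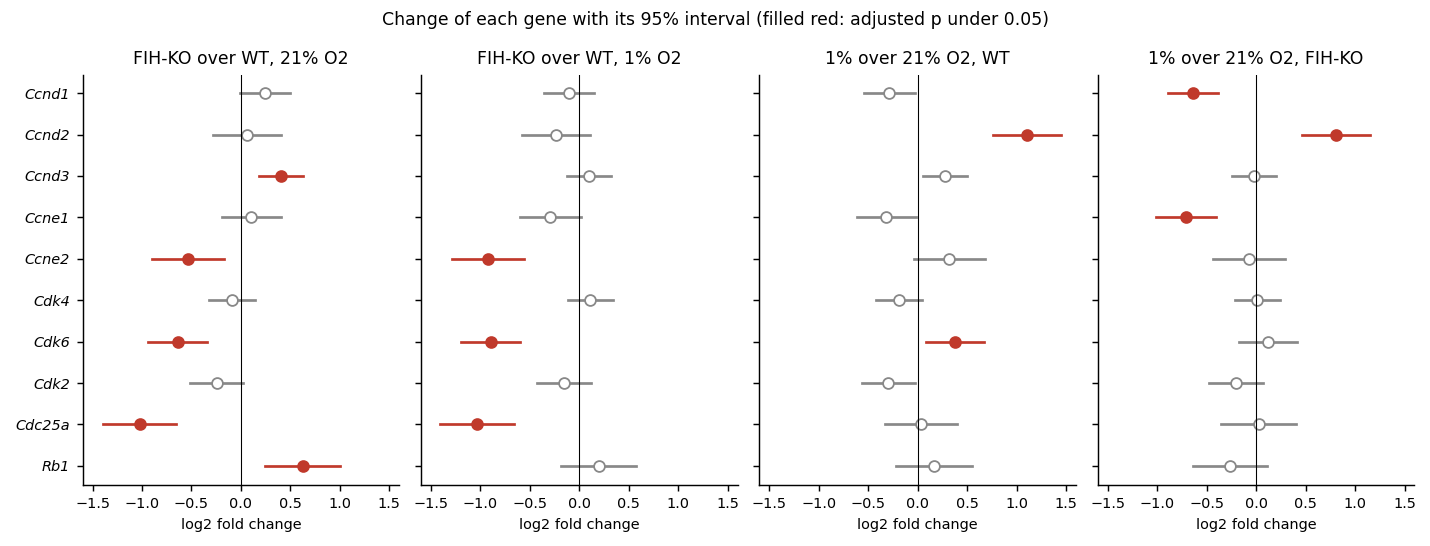
The log2 fold change of each gene in 4 comparisons (points) with its 95% confidence interval (lines); filled red points had an edgeR adjusted p below 0.05. Cdc25a lay near -1 in each comparison of genotypes and near 0 in each comparison of oxygen levels, and Ccnd2 the other way round, near 0 or not called between genotypes and at 1.11 and 0.81 between oxygen levels.

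Whether the response to hypoxia differed between the genotypes was tested as an interaction. None of the 10 genes was called (edgeR adjusted p of 0.75 or more), 0 had an unadjusted p below 0.05, and DESeq2 called none of them. The background of this test was 0.00% of all genes, with 925 genes (6.64%) at an unadjusted p below 0.05 and 37 genes called by DESeq2. The interaction of Cdc25a was -0.01 on the log2 scale with a 95% interval of -0.53 to 0.52. That of Ccnd1 was -0.35 (-0.71 to 0.01), that of Ccne1 -0.40 (-0.82 to 0.03) and that of Rb1 -0.43 (-0.96 to 0.11). Each of these intervals includes 0 and also differences of 0.5 or more, so equal responses were not shown either.

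The D cyclins, the mitogen-responsive subunits of the G1 kinases, were called in different comparisons. Whether they differed from each other was not tested. Ccnd1 stood at 513 and 550 CPM in WT normoxia, 588 and 672 in FIH-KO normoxia, 462 and 409 in WT hypoxia, and 406 and 403 in FIH-KO hypoxia. The hypoxia libraries lay below the normoxia libraries in each genotype. In FIH-KO cells Ccnd1 fell by 0.64 on the log2 scale (SE 0.12, 1.56-fold, edgeR adjusted p = 0.0037). In WT cells its change was -0.29 (SE 0.12), which edgeR did not call (adjusted p = 0.080) and DESeq2 did (adjusted p = 0.046), over alternatives that ran from 0.031 to 0.36. Between genotypes Ccnd1 did not pass the test, with 0.24 (SE 0.12, edgeR adjusted p = 0.14) in normoxia and -0.11 (SE 0.12, adjusted p = 0.54) in hypoxia.

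Ccnd2, a D cyclin, moved the other way. It stood at 313 and 290 CPM in WT normoxia, 328 and 301 in FIH-KO normoxia, 705 and 593 in WT hypoxia, and 647 and 454 in FIH-KO hypoxia. All 4 hypoxia libraries lay above all 4 normoxia libraries. In WT cells it rose by 1.11 on the log2 scale (SE 0.16, 2.15-fold, edgeR adjusted p = 0.00038), and in FIH-KO cells by 0.81 (SE 0.16, 1.75-fold, edgeR adjusted p = 0.0052). Both calls held when any 1 library was left out. Between genotypes Ccnd2 changed by 0.06 (SE 0.16) in normoxia and by -0.24 (SE 0.16, edgeR adjusted p = 0.29) in hypoxia. The hypoxia value turned on the pair of FIH-KO libraries, with -0.47 (edgeR adjusted p = 0.023) without FIH-KO hypoxia replicate 1 and an adjusted p up to 1.00 over the libraries left out.

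Ccnd3, the third D cyclin, was the least abundant. It stood at 82.1 and 83.0 CPM in WT normoxia, 104 and 114 in FIH-KO normoxia, 101 and 99.2 in WT hypoxia, and 109 and 105 in FIH-KO hypoxia. The WT normoxia libraries were the lowest of the 8. In normoxia it was higher in FIH-KO by 0.40 (SE 0.10, 1.32-fold, edgeR adjusted p = 0.012), and in hypoxia the difference was 0.10 (SE 0.10, adjusted p = 0.50). The normoxia call was lost without FIH-KO normoxia replicate 2 (edgeR adjusted p = 0.086), WT normoxia replicate 1 (0.14) or WT normoxia replicate 2 (0.10). In WT hypoxia its change of 0.28 (SE 0.10, edgeR adjusted p = 0.057) missed the threshold.

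The make-up of the D-cyclin pool differed between oxygen levels. Per exon length, Ccnd1 made up 73.0 ± 1.73% of the 3 D cyclins in WT normoxia and 74.3 ± 2.36% in FIH-KO normoxia, against 53.3 ± 0.515% in WT hypoxia and 54.9 ± 5.14% in FIH-KO hypoxia (SD, n = 2 throughout). Ccnd2 made up 21.1 ± 1.64% and 19.0 ± 2.34% in normoxia and 40.3 ± 1.05% and 37.5 ± 5.67% in hypoxia. All 4 hypoxia libraries, at 33.5 to 41.5%, lay above all 4 normoxia libraries, at 17.3 to 22.2%. Ccnd3 stayed between 5.80% and 7.91% in every library. The shares are given as values and were not tested. With coding length in place of exon length, Ccnd2 exceeded Ccnd1 in hypoxia, at 57.0% against 35.0% in WT and 53.7% against 36.6% in FIH-KO, so the order of the pair in hypoxia depends on the length used. The higher share of Ccnd2 in hypoxia was seen on each length scale and with no length correction. The sum of the 3 in WT was 149 and 155 CPM per kb in normoxia and 182 and 159 in hypoxia. In FIH-KO it was 169 and 185 in normoxia and 165 and 144 in hypoxia. The hypoxia sums were thus higher in WT and lower in FIH-KO, and the oxygen levels overlapped only with the genotypes pooled. With no length correction the FIH-KO sums overlapped, at 1021 and 1086 CPM in normoxia and 1162 and 962 in hypoxia. The sums were not tested.

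**Figure D3:**
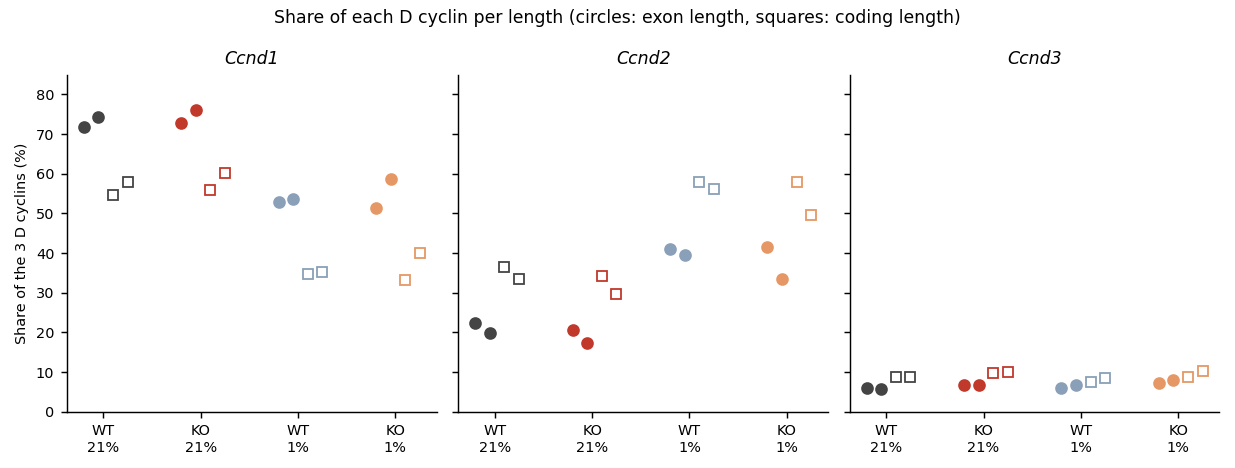
Share of each D cyclin in the sum of the 3 (%, axis from 0) in each library, per exon length (filled circles) or per coding length (open squares). The share of Ccnd1 was lower and that of Ccnd2 higher at 1% O2 than at 21% O2 in every library and on each length scale.

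Cdk4 and Cdk6, the kinase partners of the D cyclins, differed from each other. Cdk4 stood at 503 and 490 CPM in WT normoxia, 469 and 465 in FIH-KO normoxia, 448 and 423 in WT hypoxia, and 489 and 453 in FIH-KO hypoxia. Its largest change over the 4 comparisons was smaller than that of any other of the 10 genes, with log2 changes of -0.19 to 0.11 over the 4 comparisons (edgeR adjusted p from 0.20 to 0.95). Cdk6 stood at 119 and 131 CPM in WT normoxia, 71.1 and 89.5 in FIH-KO normoxia, 148 and 178 in WT hypoxia, and 91.3 and 83.4 in FIH-KO hypoxia. Every FIH-KO library lay below every WT library. Cdk6 fell by 0.64 (SE 0.14, 1.56-fold, edgeR adjusted p = 0.0046) with loss of FIH in normoxia and by 0.90 (SE 0.14, 1.86-fold, edgeR adjusted p = 0.00065) in hypoxia. Both calls held when any 1 library was left out. Its rise of 0.38 (SE 0.13) from normoxia to hypoxia in WT cells passed by a narrow margin (edgeR adjusted p = 0.049). It was lost with DESeq2 (adjusted p = 0.061), with RLE (0.053) or upper-quartile (0.056) factors, and without any 1 of the 4 libraries (0.067 to 0.34). In FIH-KO cells the change of Cdk6 with hypoxia was 0.12 (SE 0.14). The ratio of Cdk6 to Cdk4 per exon length was 0.0565 and 0.0639 in WT normoxia and 0.0787 and 0.10 in WT hypoxia, against 0.0362 to 0.0460 over the 4 FIH-KO libraries.

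The E cyclins, which activate Cdk2 at the G1/S boundary, also parted. Ccne1 stood at 49.6 and 48.0 CPM in WT normoxia, 46.6 and 58.3 in FIH-KO normoxia, 39.3 and 39.0 in WT hypoxia, and 34.2 and 29.8 in FIH-KO hypoxia. The hypoxia libraries were lower in each genotype. It fell by 0.71 (SE 0.14, 1.64-fold, edgeR adjusted p = 0.0050) with hypoxia in FIH-KO cells, a call that missed the threshold without FIH-KO normoxia replicate 2 (edgeR adjusted p = 0.053). In WT cells the change was -0.32 (SE 0.14, edgeR adjusted p = 0.099), and between genotypes it was 0.10 (SE 0.14) in normoxia and -0.29 (SE 0.14, adjusted p = 0.14) in hypoxia.

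Ccne2 stood at 46.9 and 39.6 CPM in WT normoxia, 28.2 and 31.5 in FIH-KO normoxia, 57.2 and 50.6 in WT hypoxia, and 23.8 and 33.1 in FIH-KO hypoxia. Every FIH-KO library lay below every WT library. Ccne2 fell by 0.92 (SE 0.17, 1.90-fold, edgeR adjusted p = 0.0018) with loss of FIH in hypoxia, a call kept without any 1 library. In normoxia it fell by 0.54 (SE 0.17, 1.45-fold, edgeR adjusted p = 0.030), a call lost without FIH-KO normoxia replicate 1 (0.16), WT normoxia replicate 1 (0.21) or WT normoxia replicate 2 (0.051). With hypoxia its change was 0.32 (SE 0.16, edgeR adjusted p = 0.16) in WT and -0.07 (SE 0.17) in FIH-KO cells. The ratio of Ccne1 to Ccne2 per exon length was 1.64 and 1.88 in WT normoxia, 2.56 and 2.87 in FIH-KO normoxia, 1.06 and 1.20 in WT hypoxia, and 2.23 and 1.40 in FIH-KO hypoxia. At each oxygen level the FIH-KO libraries had the higher ratio. In CPM with no length correction Ccne1 lay below Ccne2 in WT hypoxia, at 39.3 and 39.0 against 57.2 and 50.6. The order of the pair thus depends on the length used, whereas the comparison of genotypes does not.

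Cdk2, the kinase of the E cyclins, was called in no comparison. It stood at 63.3 and 57.2 CPM in WT normoxia, 49.1 and 52.4 in FIH-KO normoxia, 46.6 and 51.5 in WT hypoxia, and 41.2 and 46.9 in FIH-KO hypoxia. WT normoxia was the highest group. Its log2 changes were -0.25 and -0.16 between genotypes and -0.30 and -0.21 between oxygen levels (SE 0.12 to 0.13, edgeR adjusted p from 0.089 to 0.39).

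Cdc25a, the phosphatase that frees Cdk2 for activity, showed the largest difference between genotypes of the 10. It stood at 62.2 and 59.4 CPM in WT normoxia, 25.3 and 34.4 in FIH-KO normoxia, 61.5 and 63.2 in WT hypoxia, and 25.7 and 35.3 in FIH-KO hypoxia. The highest FIH-KO library was far below the lowest WT library, and the 2 oxygen levels overlapped in each genotype. Cdc25a was 2.03-fold lower in FIH-KO in normoxia (edgeR adjusted p = 0.0011) and 2.05-fold lower in hypoxia (edgeR adjusted p = 0.0011). Over the libraries left out, its log2 change had a range of -1.29 to -0.84 at 21% O2 and of -1.28 to -0.78 at 1% O2, with the call kept each time. Hypoxia changed it by 0.04 (95% interval -0.33 to 0.40) in WT and by 0.03 (-0.35 to 0.41) in FIH-KO cells.

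Rb1, the pocket protein that the G1 kinases inactivate, had the lowest counts. It stood at 14.9 and 17.2 CPM in WT normoxia, 25.9 and 23.7 in FIH-KO normoxia, 15.4 and 20.8 in WT hypoxia, and 20.0 and 21.3 in FIH-KO hypoxia. The genotypes were apart in normoxia and overlapped in hypoxia. In normoxia Rb1 was higher in FIH-KO by 0.62 (SE 0.17, 1.54-fold, edgeR adjusted p = 0.018), a call lost without FIH-KO normoxia replicate 1 (0.12), WT normoxia replicate 1 (0.19) or WT normoxia replicate 2 (0.063). In hypoxia the difference was 0.20 (SE 0.17, edgeR adjusted p = 0.44), and with hypoxia Rb1 changed by 0.16 (SE 0.18) in WT and -0.26 (SE 0.17) in FIH-KO cells. Of the 10 genes 9 have an annotated gene on the opposite strand, all but Cdc25a. Examples are Ints8 at Ccne2, Tspan31 at Cdk4, Pmel at Cdk2, and Lpar6 and Rcbtb2 at Rb1. Between genotypes Rcbtb2 changed by 0.70 in normoxia and 0.79 in hypoxia, and Lpar6 by -0.30 and -0.004. The strand setting of the counting is not given in the sources used here, so reads of such partners cannot be told apart.

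The genes around this machinery were read from 7 lists, and their counts are descriptions with no test of a list. The E2F factors and pocket proteins Rbl1 and Rbl2, which carry the signal from Rb1 to transcription, gave 5 lower (13.0% of all tested genes) and 1 higher (15.2%) of 12 with loss of FIH in normoxia and 3 lower (13.9%) in hypoxia. E2f4, an E2F that pairs with pocket proteins to repress, fell by 0.84 (SE 0.13, edgeR adjusted p = 0.00073) and by 0.74 (SE 0.13). E2f5, of the same kind, fell by 0.95 (SE 0.20) and fell by 1.13 (SE 0.19). The gene that rose in normoxia was E2f1, an activating E2F (0.48, SE 0.15, edgeR adjusted p = 0.030), named after its value was seen. With hypoxia 3 were lower in each genotype (15.5% of all genes in WT, 8.0% in FIH-KO), Tfdp2, a dimer partner of the E2Fs, and the atypical repressors E2f7 and E2f8, of which E2f8 fell by 1.26 (SE 0.21) in WT and by 0.78 (SE 0.21) in FIH-KO cells.

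The G1/S genes that E2F is known to drive were lower in every comparison where they were called. With loss of FIH 8 of 26 were lower in normoxia (13.0% of all tested genes) and 9 in hypoxia (13.9%), with medians of -0.37 and -0.31 against -0.003 and -0.03 over all genes. Ccna2, the S-phase cyclin, fell by 0.92 (SE 0.18, edgeR adjusted p = 0.0027) in normoxia, and Fen1, a flap endonuclease, by 0.73 (SE 0.16). In hypoxia the loading factors Cdt1 and Cdc6 fell by 0.93 (SE 0.19) and 0.86 (SE 0.19), and Dtl, which directs Cdt1 to degradation, by 0.79 (SE 0.14). With hypoxia 17 of 26 were lower in WT (15.5% of all genes) and 14 in FIH-KO cells (8.0%), with medians of -0.58 and -0.49. Chaf1b, a subunit of the chromatin assembly factor, fell by 1.05 (SE 0.15) and 1.10 (SE 0.15), and Gins2, of the replicative helicase, by 1.32 (SE 0.18) and 0.99 (SE 0.18). None of the 26 was called as higher in any of the 4 comparisons.

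Of the CDK inhibitors 4 of 7 were tested. Cdkn1a, which encodes p21, rose by 0.94 (SE 0.18, edgeR adjusted p = 0.0023) with loss of FIH in normoxia, by 1.32 (SE 0.18, edgeR adjusted p = 0.00026) with hypoxia in WT cells and by 0.59 (SE 0.18, edgeR adjusted p = 0.039) with hypoxia in FIH-KO cells. Between genotypes in hypoxia its difference was 0.21 (SE 0.18, edgeR adjusted p = 0.41). Cdkn1b, which encodes p27, rose by 0.61 (SE 0.16) with hypoxia in WT cells. Its change with hypoxia in FIH-KO cells was 0.31 (SE 0.16), and between genotypes it differed by 0.38 (SE 0.16, edgeR adjusted p = 0.096) in normoxia and 0.09 (SE 0.16) in hypoxia, none of them called. Cdkn2c, which encodes p18 and binds Cdk4 and Cdk6, fell by 1.39 (SE 0.32) with hypoxia in WT cells and was higher in FIH-KO than in WT in hypoxia by 1.21 (SE 0.32, edgeR adjusted p = 0.015). Its 2 FIH-KO hypoxia libraries stood apart, at 12.5 and 28.6 CPM.

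Among 10 kinases, phosphatases and partners that act on CDKs, Chek1 and Ccnh were lower with loss of FIH at each oxygen level, 2 of 10 against 13.0% and 13.9% of all tested genes. Chek1, the checkpoint kinase that marks Cdc25a for destruction, fell by 0.57 (SE 0.16) in normoxia and 0.47 (SE 0.16, edgeR adjusted p = 0.047) in hypoxia, and Ccnh, the cyclin of the CDK-activating kinase, by 0.44 (SE 0.13) and 0.41 (SE 0.13). Cdc25c, a mitotic relative of Cdc25a, fell by 0.65 (SE 0.16) with hypoxia in WT cells and was higher in FIH-KO than in WT in hypoxia by 0.56 (SE 0.16). In hypoxia edgeR called 3 of the list between genotypes and DESeq2 1. Among 16 genes of cyclin and Cdc25a turnover, 4 were higher and 3 lower with loss of FIH in normoxia, against 15.2% and 13.0% of all tested genes, and 1 higher and 3 lower in hypoxia, against 14.1% and 13.9%. The lower counts are near these shares. Fbxo4, an F-box protein assigned to cyclin D, rose by 0.71 (SE 0.16) and 0.75 (SE 0.17), and Cks1b, a cofactor of Skp2, fell by 0.71 (SE 0.12) and 0.40 (SE 0.12). Cryab had the largest change of the list, 2.36 (SE 0.53) in normoxia, at levels below 3 CPM in every library. With hypoxia 2 were higher and 5 lower in WT, against 16.9% and 15.5% of all genes, and 1 higher and 2 lower in FIH-KO cells, against 8.84% and 8.0%. Fbxo31, an F-box protein assigned to Ccnd1, fell by 0.91 (SE 0.13) and 0.93 (SE 0.12), and Gsk3b, the kinase that marks Ccnd1 for export and degradation, rose by 0.69 (SE 0.10) and 0.60 (SE 0.10).

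The later cyclins showed another pattern. With hypoxia in WT cells all 4 tested, Ccna2, Ccnb1, Ccnb2 and Ccnf, fell (15.5% of all genes), with a median of -0.55. In FIH-KO cells 0 were called, where 8.84% of all genes were called higher and 8.0% lower. There 0 of the 4 had an unadjusted p below 0.05 by edgeR (31.0% of all genes), and DESeq2 called 0. The 2 FIH-KO hypoxia libraries stood apart here, on either side of the FIH-KO normoxia libraries for Ccna2 (107 and 176 CPM against 152 and 157), Ccnb1 (152 and 212 against 167 and 167) and Ccnb2 (93.2 and 135 against 124 and 131), and the part of this spread in the missing calls was not tested. In the edgeR interaction test 0 of 13933 genes were called, so no difference in response was called for any of these 4. Equal responses were not shown either, and the list as a whole was not tested. Between genotypes Ccna2 and Ccnb1, the mitotic cyclin, fell in normoxia (13.0% of all genes), Ccnb1 by 0.61 (SE 0.14). In hypoxia edgeR called 0 of the 4, where 14.1% of all genes were called higher and 13.9% lower. There 2 of the 4 had an unadjusted p below 0.05 (39.5% of all genes), and DESeq2 called 2. Of 15 genes of mitogen signalling, 7 rose and 1 fell with hypoxia in WT (16.9% and 15.5% of all genes), and 4 rose and 2 fell in FIH-KO cells (8.84% and 8.0%). Ets2, a Ras-responsive factor, rose by 2.02 (SE 0.19) and 1.22 (SE 0.18), and Fosl1, a subunit of AP-1, rose by 1.07 (SE 0.24) and 1.27 (SE 0.24). Myc, a transcription factor of cell growth, rose by 2.07 (SE 0.30) and 1.65 (SE 0.30). Dusp6 went the other way and was called in each genotype, with a fall of 0.59 (SE 0.15) in WT and 0.63 (SE 0.15) in FIH-KO cells. Fos, in each genotype, and Lef1, in WT only, were also called with hypoxia, but stayed at or below 2.0 and 1.01 CPM in every library. With loss of FIH 3 of the 15, Myc, Ets1 and Etv4, were lower in normoxia, and 2, Myc and Lef1, in hypoxia. These counts are near the 13.0% and 13.9% of all tested genes called lower. The change of Myc with loss of FIH was -1.04 (SE 0.29, edgeR adjusted p = 0.020) in normoxia and -1.47 (SE 0.29, edgeR adjusted p = 0.0032) in hypoxia. In hypoxia DESeq2 called 1 of this list.

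**Figure D4:**
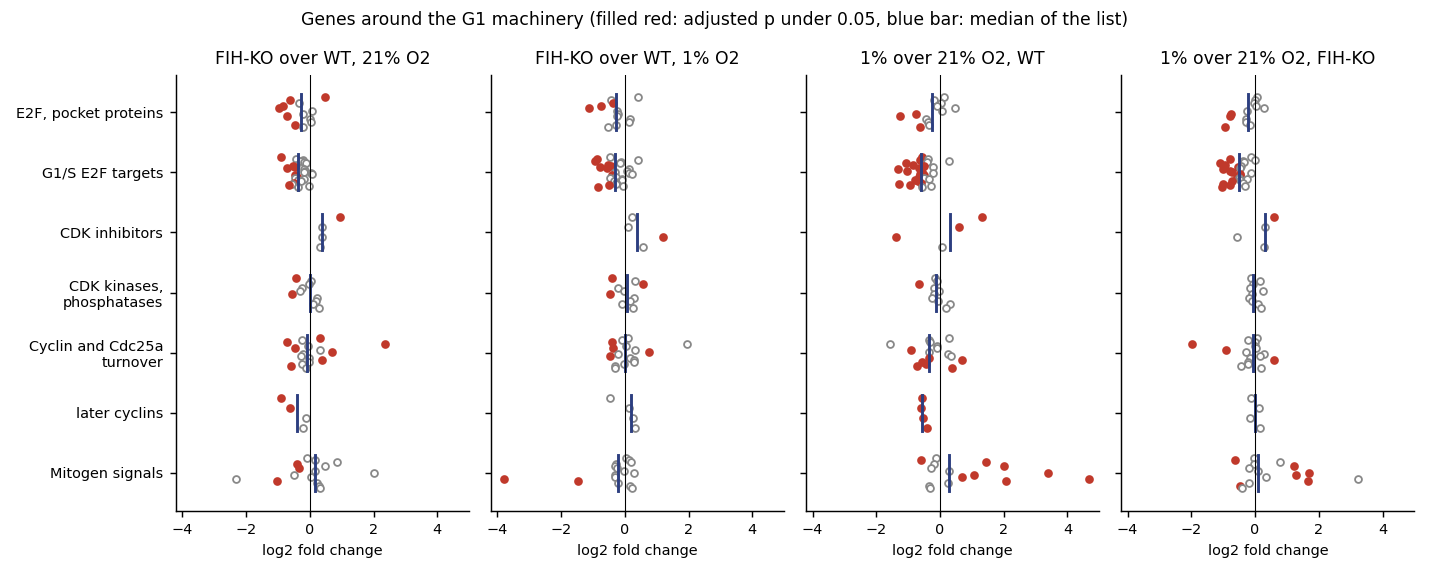
The log2 fold change of every tested gene of 7 lists in 4 comparisons; filled red points had an edgeR adjusted p below 0.05 and blue bars are the median of the list. The G1/S E2F targets lay mostly below 0 in every comparison, with medians from -0.31 to -0.58.

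Position on the chromosome was used to see whether the differences between genotypes were shared by adjacent genes. For each of the 10, the tested genes nearest to it were taken, up to 10 on each side, as a description with no test. In normoxia Cdc25a, on chromosome 9, changed by -1.02 while its 20 neighbours had a median of -0.29, and 0 of the 20 lay lower. In hypoxia it changed by -1.03 against a median of -0.35, with 3 of 20 lower. Ccne2, on chromosome 4, changed by -0.54 and -0.92 against medians of 0.05 and 0.17, with 2 and 1 of 20 neighbours lower. Cdk6, near the start of chromosome 5 with 11 neighbours, changed by -0.64 and -0.90 against -0.23 and -0.14, with 1 lower each time. Rb1 changed by 0.62 in normoxia against a median of -0.08, with 5 of 20 neighbours higher, and Ccnd3 by 0.40 against 0.19, with 4 of 20 higher. The medians around Cdc25a and Cdk6 also lay below 0. So did those of the other tested genes of chromosome 9 (-0.17 in normoxia and -0.16 in hypoxia) and of chromosome 5 (-0.10 and -0.12).

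**Figure D5:**
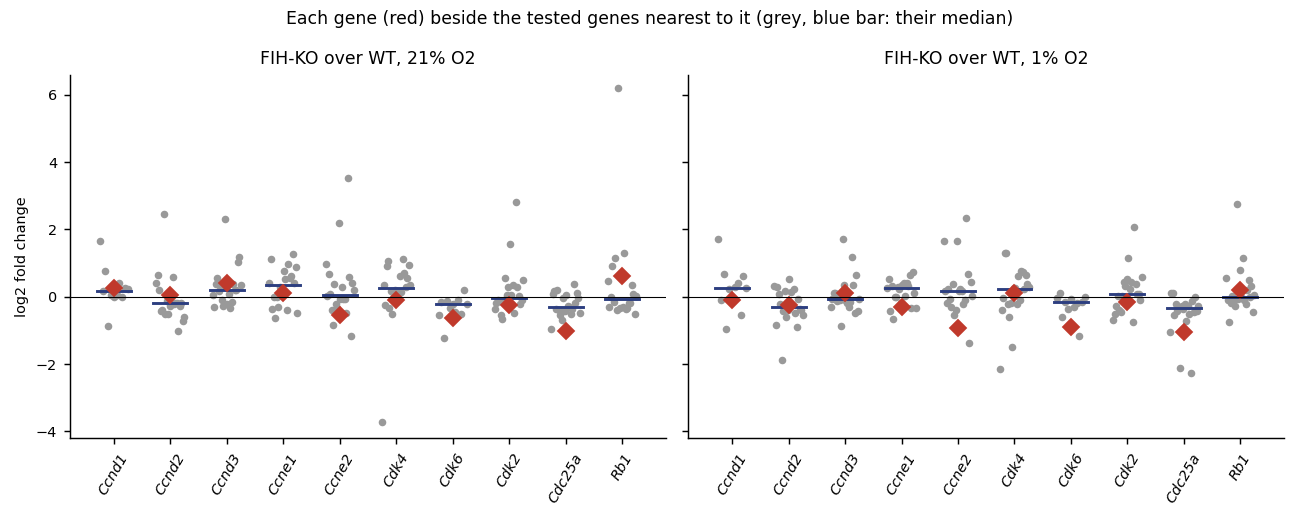
The log2 fold change between FIH-KO and WT of each gene (red diamond) and of the tested genes nearest to it on its chromosome (grey points, up to 10 on each side; blue bar, their median), at 21% O2 (left) and 1% O2 (right). Cdc25a lay below all 20 of its neighbours at 21% O2, and Ccne2 below all but 1 of its 20 at 1% O2.

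Patterns over the 8 libraries were compared with those of 10576 genes with a mean of 50 counts or more, by Pearson correlation of log2 CPM. The points share the 4 groups, so genes called between the same groups correlate. Nearest to Cdc25a were Utp6 (r = 0.993), Terf2 (0.992), 5830417I10Rik (0.991), Plekhg4 (0.990) and Atxn1l (0.989), and 137 genes had r over 0.95. Utp6 stood at 129 and 126 CPM in the WT groups and 97.4 and 100 CPM in the FIH-KO groups, so its pattern was the same with a smaller step. Nearest to Ccnd1 were Dctn1 (0.978), Gtf3c1 (0.967), Gemin7 (0.964), Gramd4 (0.956) and Ppp2cb (0.951), and 5 genes in all had r over 0.95. Dctn1 stood at 208, 243, 175 and 172 CPM in WT normoxia, FIH-KO normoxia, WT hypoxia and FIH-KO hypoxia.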

How the data were processed

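Poly(A) RNA-Seq libraries of LLC cells (TruSeq Stranded mRNA, paired-end) had been aligned by the authors with STAR to GRCm39 and counted per gene with HTSeq. The processing notes also name GRCm38, with no role. Versions and the strand setting of counting are not given in the sources used here. The deposited table holds raw counts of 53700 genes, not normalized. Groups followed the sample labels. EdgeR 4.0.16 (R 4.3.3) was run on all 8 libraries with filterByExpr, TMM factors, a model of 4 group means, quasi-likelihood tests and Benjamini-Hochberg adjustment over 13933 genes, with calls below 0.05. There were 4 residual degrees of freedom. The common estimate of the biological coefficient of variation was 11.7%, and the tests also used a spread estimated for each gene. The script was tested on simulated data. Alternatives were DESeq2 1.42.0, RLE and upper-quartile factors, no filter, 10 counts in every library, a replicate block, a fit on 4 libraries, other gene lengths and leaving out each library. Lengths, positions and promoter windows came from GRCm39 with GENCODE vM39, which matched 52610 of the identifiers. Coding lengths are those of the longest annotated coding sequence. The 10 genes and all lists were chosen with earlier results of these data known. Every one of the 10 was named, up to 4 genes per list and comparison by smallest adjusted p, and 5 genes nearest in pattern to Ccnd1 and to Cdc25a. Intervals cover counting and replicate error only.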

Additional observations from a re-analysis of the deposited data

How the results depend on the processing

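Of the alternative values of the log2 fold changes, 528 kept their direction and their side of the threshold, 17 lost a call, 7 gained one and 28 turned direction, all 28 for changes that were not called. Titles share replicate numbers 1 and 2, and the deviations of same-numbered libraries correlated between -0.01 and 0.19 over 6 pairs of groups, over 0.1 in 2 of them. Such correlations cannot settle whether the numbers pair the samples, and the main fit left the libraries unpaired. A fit with a replicate block changed 0 of 50 calls (5, 3, 2, 3 and 0 of the 10 genes). The number called in normoxia between genotypes ran from 2 to 4 with 1 library left out. In WT hypoxia it was 1 with upper-quartile factors, 1 with RLE factors, 7 with only the 4 libraries of the comparison, and 1 with any library left out. Turned values without a library left out were those of Ccnd3 with hypoxia in FIH-KO, 0.0065 with at least 10 counts in every library and 0.0060 with 4 libraries, and the Cdc25a interaction, 0.021 (upper-quartile), 0.0011 (RLE), 0.012 (no filter), 0.022 (at least 10 counts) and 0.0081 (DESeq2). With 1 library left out, the lone sample of a group being assumed to vary like the others, the ranges of turned values between genotypes were -0.022 to 0.097 (Ccnd2) and -0.093 to 0.24 (Ccne1) in normoxia and -0.19 to 0.018 (Ccnd1) in hypoxia. With hypoxia in WT they were -0.036 to 0.026 (Cdc25a) and -0.071 to 0.33 (Rb1). With hypoxia in FIH-KO they were -0.064 to 0.061 (Ccnd3), -0.33 to 0.18 (Ccne2), -0.017 to 0.061 (Cdk4), -0.018 to 0.32 (Cdk6) and -0.22 to 0.29 (Cdc25a). For the interaction they were -0.0033 to 0.25 (Cdk2) and -0.25 to 0.29 (Cdc25a). The cause was not tested. With 2 libraries a group, changes such as that of Ccnd1 between genotypes in normoxia could not be separated from replicate spread.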
